A study of Mus musculus with 16 samples.

Results

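The genes described here encode the nuclear-made parts of respiratory complexes III, IV and V and of cytochrome c, in Th17 cells, the helper T cells that make IL-17. They were chosen by name, as every protein-coding mouse gene symbol that starts with Uqcr or Atp5, or with Cox followed by a digit, together with Cyc1 and Cycs. The rule gave 54 symbols, and the table of 15571 genes held 51 of them, all of which passed the filter on low counts and were tested. Cox7b2, Cox8b and Cox8c were not analysed here. RNA was sequenced from naive mouse CD4 T cells that had been cultured for 3 days with anti-CD3, anti-CD28, IL-6, TGFβ and an antibody against IFNγ. Spleens and lymph nodes were the source of the cells, and every mouse had floxed (loxP-flanked) alleles of PDH, the pyruvate dehydrogenase complex, which makes acetyl-CoA from pyruvate in mitochondria. KO untreated cells carried these alleles with CD4-Cre and received no acetate, and WT untreated cells carried the alleles without Cre. KO acetate cells (with CD4-Cre) and WT acetate cells (without Cre) were differentiated with 10 mM sodium acetate present, which cells can turn into acetyl-CoA by another route. Each of the 4 groups had 4 libraries. No group carried CD4-Cre without the floxed alleles or received sodium without acetate, so effects of Cre and of sodium cannot be told apart from those of the knockout and of acetate. CD4-Cre acts in developing T cells, before the naive cells were isolated. The sample titles write PHD where the protocols and the series title write PDH, and PDH is used here. Nothing in the labels ties a library to its own animal or culture, so p-values reflect the variation among the sequenced libraries and may measure technical error alone.

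Complex III passes electrons from ubiquinol to cytochrome c, complex IV passes them from cytochrome c to oxygen, and both pump protons out of the mitochondrial matrix. Complex V, the ATP synthase, lets protons flow back through a rotating ring of c subunits and uses the rotation to make ATP. Each complex holds some proteins made from mitochondrial DNA, while most subunits and all assembly factors are imported from the cytosol, and activated T cells build up this machinery as they grow.

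Each library held 24.57 to 33.72 M counts, and the 51 genes together took between 0.645% and 0.815% of the counts of a library. In 4 libraries a single gene without a symbol took more than 3% of all counts: KO untreated 1 (9.14%) and 2 (3.27%), KO acetate 2 (8.0%) and WT untreated 1 (5.89%). They are called below the 4 libraries dominated by 1 gene, a label only, since that gene took at most 9.14% of their counts. Pdha1, which encodes a catalytic PDH subunit, stood between 209.6 and 235.5 CPM in KO untreated, between 232.2 and 262.4 CPM in KO acetate, between 234.4 and 263.4 CPM in WT untreated and between 250.4 and 273 CPM in WT acetate libraries. CPM is a count scaled to library size, in counts per M, after TMM scaling. The labels name neither the subunit nor the exon that was floxed, so a whole-gene count of Pdha1 does not check the deletion. CD4 T cell and Th17 markers were present in every library. Summed over 5 genes, the CD4 T cell markers lay between 934 and 1031 CPM in KO untreated, between 953 and 1058 CPM in KO acetate, between 1192 and 1252 CPM in WT untreated and between 1074 and 1155 CPM in WT acetate libraries. In KO untreated against WT untreated cells 4 of these 5 fell, as did both CD8 T cell markers. Summed CPM of the CD8 T cell markers Cd8a and Cd8b1 lay between 5.13 and 8.35 in KO untreated, between 13.7 and 18.2 in KO acetate, between 9.08 and 11.2 in WT untreated and between 13.1 and 17.2 in WT acetate libraries. Summed Th17 markers lay between 800.2 and 1092 CPM in KO untreated, between 1744 and 2972 CPM in KO acetate, between 836 and 1249 CPM in WT untreated and between 1414 and 2225 CPM in WT acetate libraries. The 4 B cell markers stayed between 1.10 and 4.78 CPM, Lyz2, Itgam and Cd14 together between 1.39 and 3.84 CPM, and Flt3, a dendritic cell marker, at 1.26 CPM or less over all 16 libraries, though it rose in KO untreated against WT untreated cells (log2 fold change 2.13). NK and erythroid markers were not analysed here. The part of other cell types and of the shifts in CD4 T cell and Th17 markers in the results below was not tested.

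Short transcripts set the KO acetate libraries apart from each other, which bears on most of the genes described here, since of those averaging at least 8 CPM 28 have principal transcripts of up to 1 kb and 17 longer ones. Deviations are given as the median over genes of log2 CPM minus the group's mean. The 28 short members lay at −0.21 in KO acetate 1 and −0.12 in KO acetate 3, against 0.16 in KO acetate 2 and 0.19 in KO acetate 4. The 704 other genes with transcripts of that length lay at −0.16, 0.11, −0.09 and 0.14 in KO acetate 1 to 4. The 17 members with longer transcripts shifted the same way, with −0.11, 0.06, −0.05 and 0.10 in KO acetate 1 to 4. In the other groups the widest deviation of the short members was 0.14, in KO untreated 4, where the other short genes lay at 0.05. Summed over its nuclear members, complex IV reached 1430.5, 1900.0, 1525 and 1902 CPM in KO acetate 1 to 4. KO untreated libraries held 1806, 1801, 1731 and 1898 CPM of the same genes, WT untreated libraries 1878, 1979.7, 1907 and 1892 CPM, and WT acetate libraries 1933, 2093, 1968 and 1945 CPM. KO acetate 1 and 3 were the lowest of the 16 libraries by this sum. Comparisons with KO acetate are therefore also given without these libraries and with a correction for transcript length, both chosen after seeing the data.

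**Figure D1:**
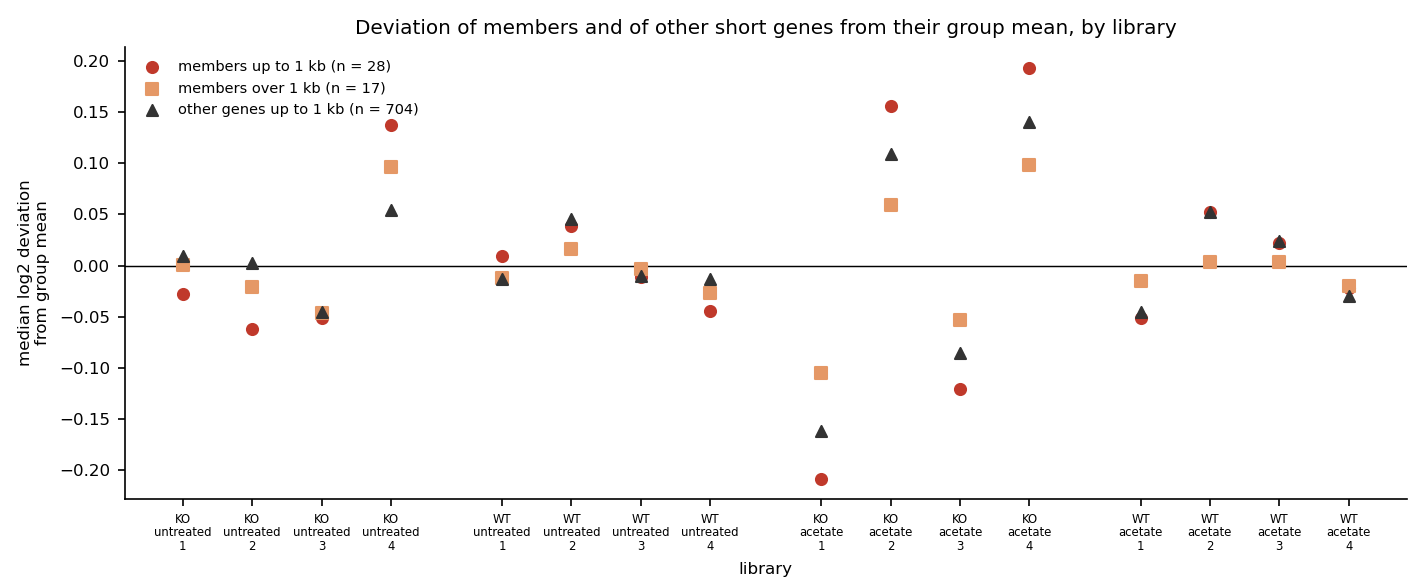
Median log2 deviation from the group mean (vertical axis) in each of the 16 libraries (horizontal axis), for members with transcripts up to 1 kb (circles, 28 genes), members with longer transcripts (squares, 17 genes) and all other genes up to 1 kb (triangles, 704 genes). KO acetate 1 and 3 lie below zero and KO acetate 2 and 4 above it for all 3 sets of genes, with the short members between −0.21 and 0.19.

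Transcript levels differed widely between the roles. Levels are compared between genes as CPM per kb of transcript, as mean ± SD of 4 libraries. The catalytic β subunit of the ATP synthase, Atp5b, had the highest level with 855 ± 46.8 CPM per kb in KO untreated, 718 ± 13.4 in KO acetate, 786 ± 17.0 in WT untreated and 743 ± 8.51 in WT acetate cells. The α subunit Atp5a1 followed with 383 ± 12.6 CPM per kb in KO untreated and 372 ± 6.39 in WT untreated cells. The γ subunit Atp5c1, which turns inside the head they form, had 214 ± 1.81 CPM per kb in KO untreated and 215 ± 5.67 in WT untreated cells. Cytochrome c itself, Cycs, carried 33.4 ± 3.22 CPM per kb in KO untreated and 39.8 ± 2.60 in WT untreated cells, below every core and supernumerary subunit of complex III. Its membrane-bound electron donor in complex III, Cyc1 (cytochrome c1), stood at 89.0 ± 3.24 CPM per kb in KO untreated and 87.6 ± 2.65 in WT untreated cells. The assembly factors of complex IV lay between 7.31 and 30.8 CPM per kb in the untreated groups, apart from the copper chaperone Cox17 at 125 ± 2.48 in KO untreated and 136 ± 10.7 in WT untreated cells.

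Subunits with tissue-restricted copies were represented by their widely expressed form. Cox4i1 had 299 ± 6.04 CPM per kb in KO untreated and 340.0 ± 9.95 in WT untreated cells, while Cox4i2, known from lung, had 0.630 ± 0.379 and 0.422 ± 0.247 in the same groups. For Cox6b, the common Cox6b1 had 179 ± 17.1 CPM per kb in KO untreated and 228 ± 16.5 in WT untreated cells, and Cox6b2, known from testis, had 10.5 ± 1.04 and 7.03 ± 1.23. The muscle form Cox7a1 had 2.90 ± 0.423 CPM per kb in KO untreated and 2.24 ± 0.580 in WT untreated cells. Its common relatives were Cox7a2, with 119.6 ± 10.8 and 140.0 ± 8.19 CPM per kb in these groups, and Cox7a2l, which helps join complexes III and IV into supercomplexes, with 159.6 ± 13.4 and 159 ± 14.9. Cox7b had 156 ± 13.6 CPM per kb in KO untreated and 156 ± 6.96 in WT untreated cells, and Cox7a2l and Cox7b differed in both groups by less than the SD of either. The c ring subunit is encoded by Atp5g1, Atp5g2 and Atp5g3, whose mature proteins are the same. Atp5g3 was the most abundant with 331 ± 36.5 CPM per kb in KO untreated and 367 ± 15.6 in WT untreated cells. Atp5g1 followed with 173 ± 27.3 and 183 ± 19.7, and Atp5g2 was lowest with 16.4 ± 3.59 and 14.8 ± 3.83 CPM per kb in these groups. Across libraries, Atp5g3 had 225, 212, 235 and 272 CPM in KO untreated and 273, 265, 264 and 247 CPM in WT untreated libraries, and these ranges overlapped. Atp5g2 had 7.15, 6.77, 9.43 and 5.66 CPM in KO untreated and 7.74, 7.82, 4.20 and 6.42 CPM in WT untreated libraries, also with overlap. Cox4i2 had 0.311, 0.680, 0.144 and 0.698 CPM in KO untreated and 0.138, 0.545, 0.206 and 0.338 CPM in WT untreated libraries, with overlap. Cox7a1 had 1.17, 1.00, 1.37 and 1.03 CPM in KO untreated and 1.07, 0.879, 0.558 and 1.01 CPM in WT untreated libraries, so neither restricted form separated the groups.

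**Figure D2:**
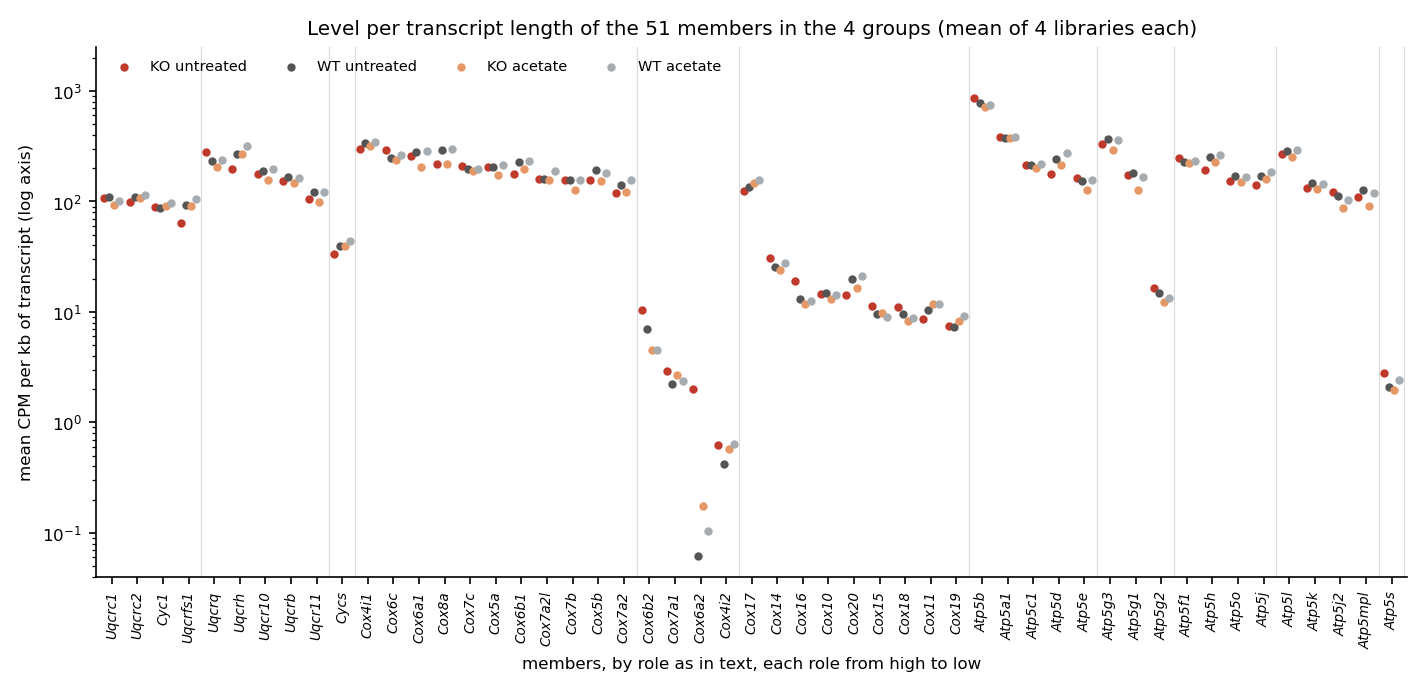
Mean CPM per kb of principal transcript on a log axis for the 51 genes, in KO untreated, WT untreated, KO acetate and WT acetate cells (4 libraries each), with vertical lines between roles in the order of the text and genes sorted from high to low within a role. Atp5b is highest, and the restricted forms Cox7a1, Cox6a2 and Cox4i2 and the accessory Atp5s lie lowest.

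Without acetate, knockout cells had lower transcript levels of single subunits in all 3 complexes and of cytochrome c, and higher levels of a few other genes. The share called in either direction and the median over the genes stayed near those of all genes. Of the 51 genes, 13 fell and 4 rose in KO untreated against WT untreated cells at an adjusted p under 0.05, while 18.6% and 18.0% of all 14985 genes tested fell and rose (36.6% in either direction). The members' shares were 25.5% lower and 7.84% higher, and their median log2 fold change was −0.03, against 0.01 for all genes. The largest decreases were those of the Rieske iron-sulfur protein Uqcrfs1, Cox20, Uqcrh, Atp5d and Cox8a, each of between −0.55 and −0.42 on the log2 scale. Among the 37 common structural subunits and cytochrome c, 12 fell (32.4%) and 1 rose (2.7%). Only Cox6a2 changed by more than 2-fold, and it passed the filter on low counts only through KO untreated, where it was high. In bulk RNA such as this, fewer cells of a type and less RNA per cell cannot be told apart.

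In complex III, 3 of 9 genes fell (33.3%) and 1 rose (11.1%), beside 18.6% and 18.0% of all genes. Uqcrfs1, the iron-sulfur protein that takes electrons from ubiquinol, had 89.3, 80.4, 84.8 and 93.0 CPM in KO untreated libraries 1 to 4, against 126, 127, 129.9 and 126 CPM in WT untreated libraries. Every KO untreated library lay below every WT untreated one, and the fall was larger than the spread between libraries (log2 fold change −0.55, SE 0.06, adjusted p = 1.54e-06). Uqcrh, the acidic hinge protein at the site where cytochrome c binds, had 114, 101, 106 and 108 CPM in KO untreated and 142, 151, 144 and 155 CPM in WT untreated libraries, again without overlap (log2 fold change −0.46, SE 0.06, adjusted p = 2.07e-05). Uqcrc2, one of the large core proteins, fell slightly, with overlapping groups (log2 fold change −0.16, SE 0.05, adjusted p = 0.0265), and missed the threshold with the correction for transcript length (adjusted p = 0.0574). Uqcrq, a small subunit next to cytochrome b, moved the other way. It had 115, 118, 102 and 117 CPM in KO untreated and 94.0, 100.004, 91.7 and 92.4 CPM in WT untreated libraries, with all KO untreated libraries above all WT untreated ones (log2 fold change 0.26, SE 0.08, adjusted p = 0.0125). This call was lost when libraries were scaled by their totals alone (adjusted p = 0.054) and without the 4 libraries dominated by 1 gene (adjusted p = 0.183). Cyc1 did not pass the test (log2 fold change 0.02, SE 0.06, adjusted p = 0.769), with 136, 138, 128 and 139 CPM in KO untreated and 132, 132, 139 and 129.8 CPM in WT untreated libraries. Cycs, its soluble electron acceptor, had 108, 92.7, 100.1 and 116 CPM in KO untreated and 129, 129, 112 and 128 CPM in WT untreated libraries and fell (log2 fold change −0.25, SE 0.08, adjusted p = 0.0216). The Cycs groups overlapped, and 5 of the 8 fits that each left out 1 library of the compared groups no longer called it.

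**Figure D3:**
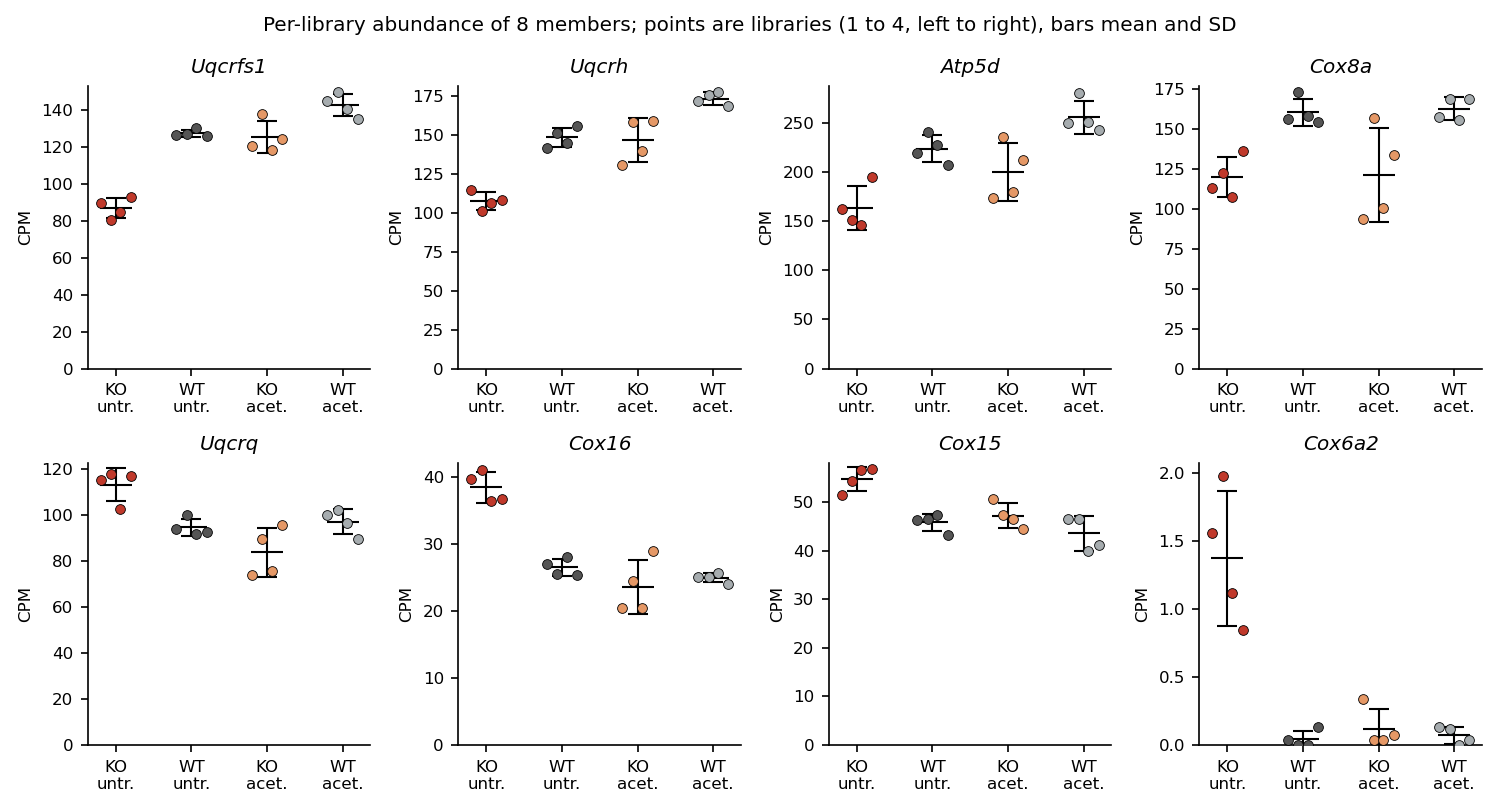
CPM (vertical axis, from 0) of 8 genes in the single libraries of KO untreated, WT untreated, KO acetate and WT acetate cells, with points for libraries 1 to 4 from left to right and bars for mean and SD. Uqcrfs1, Uqcrh, Atp5d and Cox8a are lower and Uqcrq, Cox16, Cox15 and Cox6a2 higher in KO untreated than in WT untreated libraries, without overlap in each of the 8 panels.

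Of the 11 common subunits of complex IV, 4 fell (36.4%, beside 18.6% of all genes) and the others did not pass. Cox8a, a small subunit within the membrane, had 113, 123, 107 and 136 CPM in KO untreated and 156, 173, 158 and 154 CPM in WT untreated libraries, which did not overlap (log2 fold change −0.42, SE 0.12, adjusted p = 0.0146). Without KO untreated 3 the adjusted p of Cox8a was 0.0525. Cox6b1, on the face of the complex that binds cytochrome c, had 107, 101, 108 and 126 CPM in KO untreated and 144, 150.4, 143 and 127 CPM in WT untreated libraries (log2 fold change −0.35, SE 0.08, adjusted p = 0.00337). Cox4i1 stood at 218, 226, 219 and 227 CPM in KO untreated and 243, 259, 254 and 257 CPM in WT untreated libraries, without overlap. Cox5b, which faces the matrix, and Cox4i1, a subunit through which ATP is known to act on the complex, also fell (log2 fold change −0.30, SE 0.08, adjusted p = 0.00626 and log2 fold change −0.19, SE 0.07, adjusted p = 0.0397). Cox6b1, Cox5b and Cox4i1 lost their calls without the 4 libraries dominated by 1 gene, with log2 fold changes of −0.26 for Cox6b1, −0.23 for Cox5b and −0.21 for Cox4i1. Cox6a1, Cox7a2, Cox7a2l and Cox7b did not pass, with log2 fold changes of −0.11 (SE 0.14) for Cox6a1, −0.23 (SE 0.10) for Cox7a2, 0.01 (SE 0.09) for Cox7a2l and 0.00 (SE 0.15) for Cox7b. Cox7a2 had 81.9, 74.6, 71.6 and 87.3 CPM in KO untreated and 93.5, 98.0, 92.5 and 85.0 CPM in WT untreated libraries, with overlap, and it passed the test when libraries were scaled by totals alone (adjusted p = 0.0218). Cox7b had 166, 141, 149 and 169 CPM in KO untreated and 160.3, 161, 155 and 146 CPM in WT untreated libraries, which overlapped.

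The muscle form Cox6a2 was detected almost only in untreated knockout cells. Its 4 KO untreated libraries held 155 counts together and 1.55, 1.98, 1.12 and 0.845 CPM, while the 4 WT untreated libraries held 5 counts and 0.0344, 0, 0 and 0.135 CPM. The ratio of scaled counts was 34.9, with a 95% interval from 14.6 to 109 that covers counting error only (log2 fold change 4.96, SE 0.79, adjusted p = 0.000101). Cox6a2 passed the filter on low counts only through KO untreated, the group where it was high. Its adjusted p values here and below therefore describe these counts and are not independent support. All KO untreated libraries lay above all other libraries of the study, yet the gene stayed under 2 CPM, far below Cox6a1 at 141, 142, 129 and 178 CPM in the same libraries. Cox6b2, with 4.39, 5.54, 4.71 and 4.89 CPM in KO untreated and 2.44, 3.76, 3.47 and 3.41 CPM in WT untreated libraries, did not overlap between the groups but missed the threshold (log2 fold change 0.58, SE 0.26, adjusted p = 0.0941).

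Among the 9 assembly factors of complex IV, 2 rose (22.2%) and 1 fell (11.1%), beside 18.0% and 18.6% of all genes. Cox16, which takes part in adding copper to the Cox2 subunit, had 39.7, 41.2, 36.4 and 36.8 CPM in KO untreated and 27.1, 25.5, 28.1 and 25.5 CPM in WT untreated libraries, without overlap (log2 fold change 0.54, SE 0.09, adjusted p = 0.000155). Cox15, which makes the heme A of complex IV, had 51.5, 54.2, 56.6 and 56.8 CPM in KO untreated and 46.2, 46.4, 47.3 and 43.1 CPM in WT untreated libraries, again without overlap (log2 fold change 0.26, SE 0.06, adjusted p = 0.00407). With libraries scaled by totals alone, Cox15 missed the threshold (adjusted p = 0.065). Cox20, a chaperone of the newly made Cox2 subunit, went down. Its levels were 7.03, 6.25, 6.55 and 7.24 CPM in KO untreated and 11.9, 7.54, 8.70 and 9.46 CPM in WT untreated libraries (log2 fold change −0.47, SE 0.12, adjusted p = 0.00551). WT untreated 1, one of the 4 libraries dominated by 1 gene, held the highest value of Cox20, and the call was lost without those libraries (log2 fold change −0.32, adjusted p = 0.118).

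In the ATP synthase, 4 of 17 genes fell (23.5%, beside 18.6% of all genes) and the rest did not pass. Atp5d, the δ subunit of the rotating central stalk, had 162, 151, 146 and 195 CPM in KO untreated and 219.7, 240.1, 227 and 207 CPM in WT untreated libraries, without overlap (log2 fold change −0.45, SE 0.10, adjusted p = 0.00152). Of the 4 peripheral stalk genes, whose products hold the head in place, 2 fell as well. Atp5h, the d subunit, had 116, 111, 119 and 133 CPM in KO untreated and 152, 163, 158 and 164 CPM in WT untreated libraries (log2 fold change −0.41, SE 0.07, adjusted p = 0.000127). Atp5j, coupling factor 6, had 122, 108, 111 and 115 CPM in KO untreated and 138, 133, 136 and 142 CPM in WT untreated libraries (log2 fold change −0.27, SE 0.06, adjusted p = 0.00354). Atp5mpl, a small membrane subunit, fell just past the threshold (log2 fold change −0.20, SE 0.08, adjusted p = 0.0438), and 7 of the 8 fits without 1 library of the compared groups lost that call. The catalytic subunits did not pass, with log2 fold changes of 0.04 (SE 0.05) for Atp5a1 and 0.12 (SE 0.06) for Atp5b. Nor did the c ring genes pass, with −0.07 (SE 0.13) for Atp5g1, 0.15 (SE 0.25) for Atp5g2 and −0.15 (SE 0.09) for Atp5g3.

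Of the 13 calls in this comparison made on genes named by rule, those of Uqcrfs1, Uqcrh, Atp5d, Cox16 and Cox6a2 held in every alternative fit tried. For Cox6a2 this adds no support, since it passed the filter only through KO untreated. Without the 4 libraries dominated by 1 gene, which leaves 2 KO untreated and 3 WT untreated libraries, 7 genes fell and 3 rose. Without KO untreated 3 alone, 8 fell. With libraries scaled by totals alone, 16 fell and 2 rose. Over all 51 genes, KO untreated libraries lay wholly below WT untreated libraries for 11 genes (18.2% of all genes) and wholly above for 9 (17.9% of all genes, and 36.0% either way). The 20 members with transcripts of up to 0.7 kb had a median log2 fold change of −0.11, against 0.07 for the 298 other genes of that length. For transcripts of 0.7 to 1 kb the medians were −0.17 over 8 members and −0.04 over 406 other genes.

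**Figure D4:**
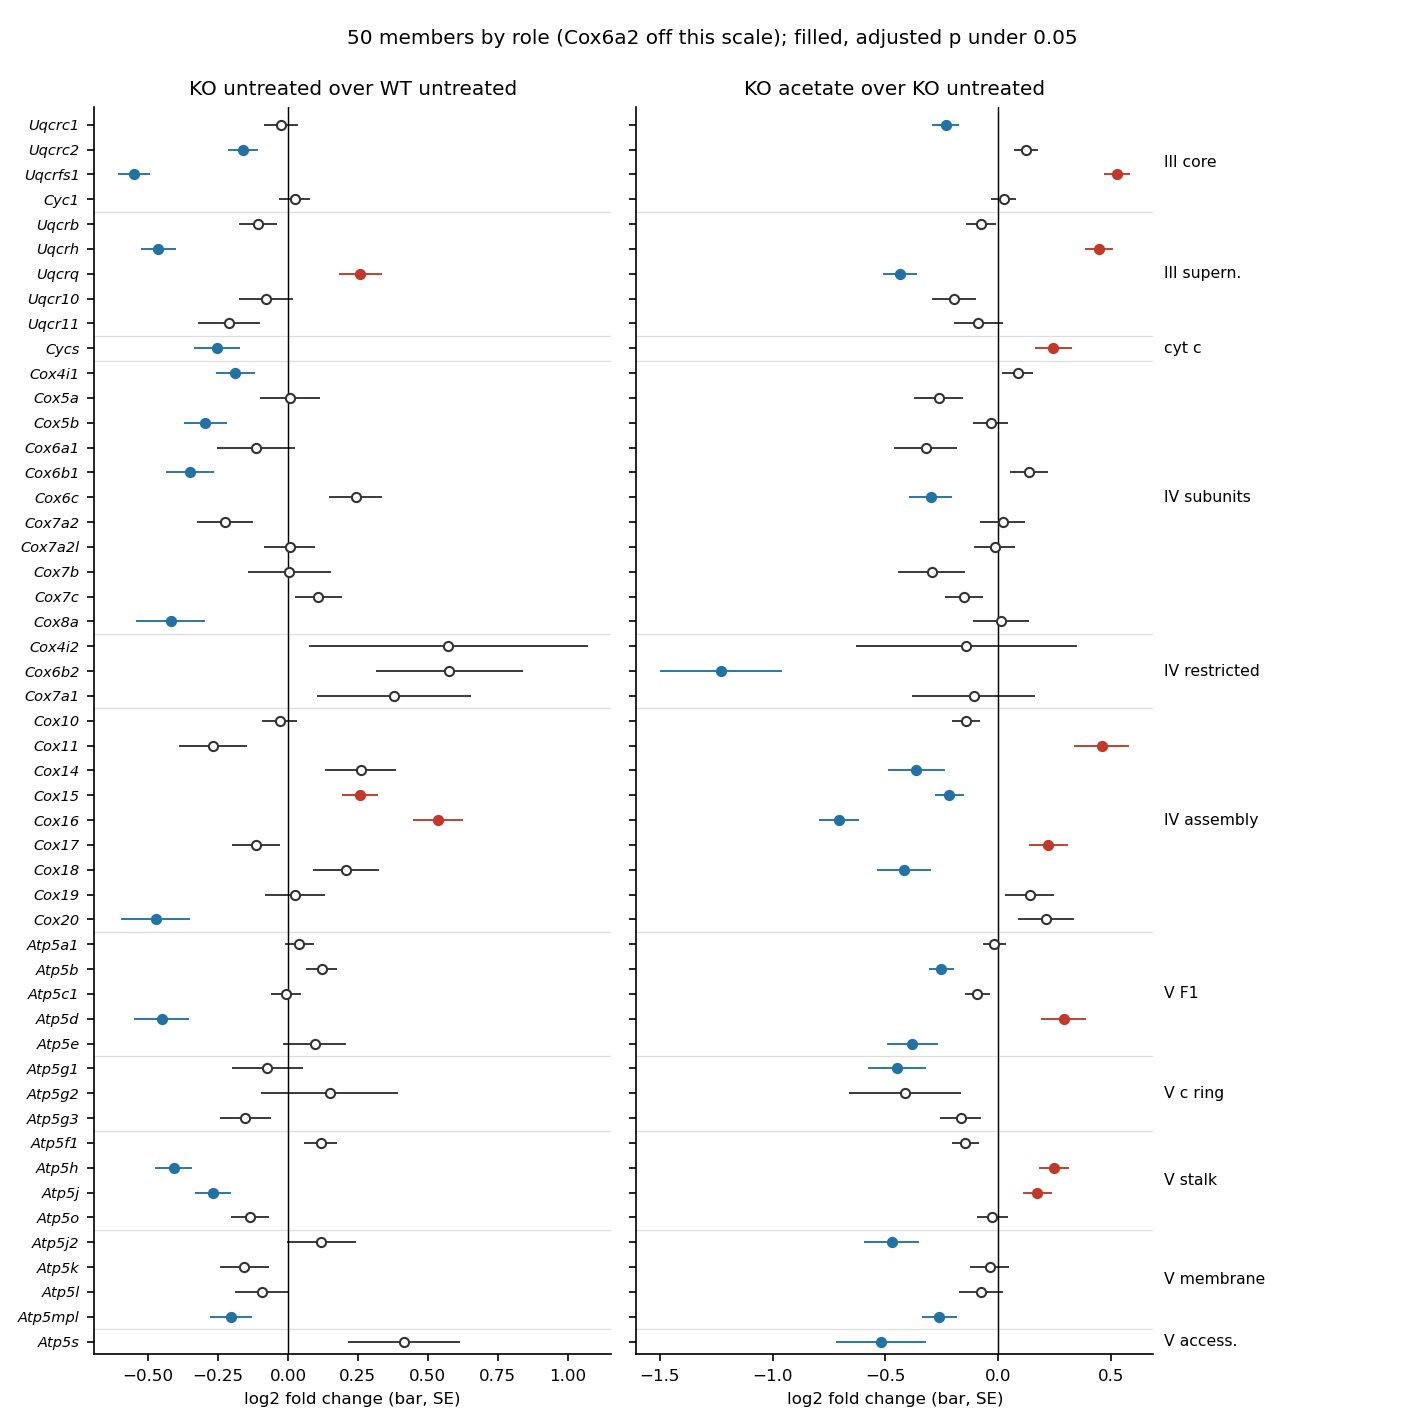
Log2 fold change with SE (horizontal axis) of 50 genes, by role, in KO untreated over WT untreated (left) and KO acetate over KO untreated cells (right), which share the KO untreated libraries. Filled points passed an adjusted p of 0.05, with 13 lower and 3 higher on the left and 8 higher and 14 lower on the right. Cox6a2 (4.96 and −3.44) is off the scale.

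Some genes that fell, some that rose and some that were not called in KO untreated cells carried the same sequence element at their starts. Promoter windows from 250 bases before to 50 bases after the RefSeq start (GRCm38.p6) were found for 38 of the 51 genes. The letters CCGGAAG, a core bound by ETS factors such as GABP, a known activator of respiratory genes, occurred on either strand in 14 of the 38 (36.8%), against 9.08% of the 26987 other promoters of that length. Those other promoters were not limited to genes expressed here. None of the 16 matches in these 14 promoters shared a base with a match of another motif searched. Stretches are shown for 2 genes that fell and 2 that rose, chosen after their values were seen because the element lies within 11 bases of each start. They run from 100 bases before to 30 bases after the start, 5′ to 3′ on the gene's strand, with the ETS letters (CCGGAAG, or CTTCCGG for the other strand) in capitals. Uqcrh lies at chr4:116075041-116075170 (minus strand), Cox8a at chr19:7217587-7217716 (minus strand), Cox16 at chr12:81484822-81484951 (minus strand) and Cox15 at chr19:43752971-43753100 (minus strand), all in GRCm38.p6.
Uqcrh: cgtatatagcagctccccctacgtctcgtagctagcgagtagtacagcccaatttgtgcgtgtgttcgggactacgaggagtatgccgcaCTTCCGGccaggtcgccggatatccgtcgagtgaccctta
Cox8a: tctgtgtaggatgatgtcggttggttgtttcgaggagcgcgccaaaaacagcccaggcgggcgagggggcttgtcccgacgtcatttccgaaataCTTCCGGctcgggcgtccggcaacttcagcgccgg
Cox16: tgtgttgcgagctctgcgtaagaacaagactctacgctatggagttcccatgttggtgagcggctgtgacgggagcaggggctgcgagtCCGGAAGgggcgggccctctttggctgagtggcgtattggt
Cox15: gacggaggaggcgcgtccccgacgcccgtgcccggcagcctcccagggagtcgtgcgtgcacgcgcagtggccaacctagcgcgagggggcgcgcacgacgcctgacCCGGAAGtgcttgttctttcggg
The match begins 10 bases before the start in Uqcrh, 5 before in Cox8a, 11 before in Cox16 and at base 8 of the transcript in Cox15. Cox8a holds another at base 33, beyond the letters shown. Of the genes with a window, the element was present in 5 of 10 that fell and in 2 of 2 that rose. Atp5e, Uqcr11, Cox14, Atp5l, Cox6a1, Cox10 and Atp5k carried it too and were not called without acetate. With 10 and 2 called genes, these shares rest on few windows. Gabpa, named for GABP, had 79.6, 74.6, 79.1 and 77.0 CPM in KO untreated libraries. WT untreated libraries held 88.5, 80.9, 76.3 and 78.3 CPM of Gabpa, which overlapped. CGCATGCG, the core of the NRF1 site, occurred in 7 of 38 windows (18.4%), against 1.89% of the others, among them that of Cycs. AAGATGGC (YY1) and AAGGTCA (ERR) each occurred in 4 of 38 (10.5%), against 2.87% and 4.65% of the others. The ERR letters were in 0 of the 10 genes that fell and 0 of the 2 that rose. Their carriers were Atp5e, Atp5g3, Atp5l and Atp5k. The NRF1 and YY1 letters were each in 1 of the 10 that fell and 0 of the 2 that rose. GGGCGG (SP1) was in 16 of 38 (42.1%), against 35.9%, and TATAAA in 2 of 38 (5.26%), against 14.2%. TGATGCAA (ATF4) was in none of the 38 windows and in 0.930% of the others. All letters were searched on both strands, and a match is a description of these windows only.

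With acetate, knockout cells had some of these genes higher and more of them lower in the reported fit, and the share called in either direction was near that of all genes. In KO acetate against KO untreated cells, 8 of the 51 genes rose and 15 fell, while 22.1% and 21.6% of all genes tested rose and fell (43.7% in either direction). The members' shares were 15.7% higher and 29.4% lower, and their median log2 fold change was −0.11, against −0.01 for all genes. Uqcrfs1, Cox11, Uqcrh and Atp5d rose most, and Cox6a2, Cox6b2, Cox16 and Atp5s fell most. The split depended on scaling: with libraries scaled by totals alone, 10 genes rose and 8 fell, while the median of all genes shifted by 0.10. The comparison uses the same KO untreated libraries as the one above, so its values are given beside those and are not independent of them.

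Uqcrfs1 had 121, 138, 118 and 124 CPM in KO acetate libraries 1 to 4, all above the KO untreated values given above (log2 fold change 0.53, SE 0.06, adjusted p = 9.3e-07). For Uqcrh the KO acetate libraries held 131, 158, 139 and 159 CPM, again above every KO untreated library (log2 fold change 0.45, SE 0.06, adjusted p = 1.46e-05). Both genes kept these calls in every alternative fit. Set against WT untreated cells instead, KO acetate cells did not differ at the threshold in either, with log2 fold changes of −0.02 (SE 0.06) for Uqcrfs1 and −0.01 (SE 0.06) for Uqcrh. With the correction for transcript length the value of Uqcrh in that comparison turned to 0.16 (adjusted p = 0.0172). Against WT acetate cells, Uqcrfs1 was at −0.19 (SE 0.06, adjusted p = 0.102) and Uqcrh at −0.24 (SE 0.06, adjusted p = 0.0658), and neither passed in edgeR. DESeq2 called both lower there, as did the fit without the 4 libraries dominated by 1 gene. Cycs had 112, 121, 116 and 146 CPM in KO acetate libraries, which overlapped with KO untreated, and rose (log2 fold change 0.25, SE 0.08, adjusted p = 0.0209). Cyc1 did not pass (log2 fold change 0.03, SE 0.06, adjusted p = 0.749).

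In the ATP synthase, Atp5d, Atp5h and Atp5j rose (17.6%) and 6 other genes fell (35.3%), beside 22.1% and 21.6% of all genes. Atp5d had 173, 236, 179 and 212 CPM in KO acetate libraries (log2 fold change 0.29, SE 0.10, adjusted p = 0.0218), with overlap. Atp5h had 124, 157, 142 and 147 CPM (log2 fold change 0.25, SE 0.07, adjusted p = 0.00529) and Atp5j 117, 133, 118 and 147 CPM in these libraries (log2 fold change 0.17, SE 0.06, adjusted p = 0.0369). Without the 4 libraries dominated by 1 gene, none of Atp5d, Atp5h, Atp5j, Cox11, Cox17 and Cycs passed, and 2 genes in all rose, Uqcrfs1 and Uqcrh. Atp5b, the most abundant of these genes per kb, had 1369.9, 1397, 1343 and 1396 CPM in KO acetate libraries, against 1559, 1612, 1614 and 1767 CPM in KO untreated libraries, and fell without overlap (log2 fold change −0.25, SE 0.06, adjusted p = 0.00116). With libraries scaled by totals alone Atp5b missed the threshold (adjusted p = 0.122). Atp5g1 of the c ring had 64.1, 87.8, 63.5 and 87.7 CPM in KO acetate and 100.3, 92.8, 93.2 and 127 CPM in KO untreated libraries (log2 fold change −0.45, SE 0.13, adjusted p = 0.0092). KO acetate 1 and 3 held its lowest values, and without both the log2 fold change was −0.24 (adjusted p = 0.178). Atp5g2 and Atp5g3 did not pass, with −0.41 (SE 0.25) for Atp5g2 and −0.17 (SE 0.09) for Atp5g3. Atp5s, an accessory factor, had 2.63, 3.85, 3.12 and 2.09 CPM in KO acetate and 3.85, 5.28, 4.21 and 3.38 CPM in KO untreated libraries (log2 fold change −0.52, SE 0.20, adjusted p = 0.0433), and 10 of 18 alternative fits lost that call. Atp5e of the central stalk, Atp5j2 and Atp5mpl of the membrane part fell too, with −0.38 (SE 0.11) for Atp5e, −0.47 (SE 0.12) for Atp5j2 and −0.26 (SE 0.08) for Atp5mpl. None of these 3 calls held throughout. Atp5e was lost with the length correction (adjusted p = 0.071), and Atp5j2 without the 4 libraries dominated by 1 gene (adjusted p = 0.0552). Atp5mpl was lost with the length correction (log2 fold change −0.01, adjusted p = 0.952), with scaling by totals alone (adjusted p = 0.116) and without KO acetate 1 and 3 (adjusted p = 0.234).

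Of the 9 assembly factors of complex IV, 2 were higher (22.2%) and 4 lower (44.4%) with acetate, beside 22.1% and 21.6% of all genes. Cox11, which delivers copper to the Cox1 subunit, had 13.5, 13.5, 13.0 and 17.7 CPM in KO acetate and 10.5, 8.55, 11.3 and 11.7 CPM in KO untreated libraries, without overlap (log2 fold change 0.46, SE 0.12, adjusted p = 0.0046). Cox17 also rose (log2 fold change 0.22, SE 0.09, adjusted p = 0.0432). Cox16 had 20.5, 24.5, 20.5 and 29.0 CPM in KO acetate libraries, all below the KO untreated libraries (log2 fold change −0.70, SE 0.09, adjusted p = 5.28e-06). Cox15 had 50.5, 47.4, 46.4 and 44.4 CPM in KO acetate libraries (log2 fold change −0.22, SE 0.06, adjusted p = 0.0106), and scaling by totals alone took it to −0.11 (adjusted p = 0.297). Cox18, which helps insert Cox2 into the membrane, and Cox14, a partner of newly made Cox1, fell, with −0.42 (SE 0.12) for Cox18 and −0.36 (SE 0.13) for Cox14. Cox14 missed the threshold with the length correction (adjusted p = 0.0912) and with scaling by totals alone (adjusted p = 0.0766). In complex III, Uqcrq had 73.8, 89.3, 75.7 and 95.6 CPM in KO acetate libraries, all below the KO untreated libraries (log2 fold change −0.44, SE 0.08, adjusted p = 0.000142), and the core protein Uqcrc1 fell (log2 fold change −0.23, SE 0.06, adjusted p = 0.0044), though not with scaling by totals alone (adjusted p = 0.173). Of the common complex IV subunits only Cox6c passed in the reported edgeR fit, with 101, 123, 106 and 151 CPM in KO acetate and 159.9, 151, 143 and 138 CPM in KO untreated libraries (log2 fold change −0.30, SE 0.09, adjusted p = 0.0157). That call was lost with the length correction (adjusted p = 0.205) and without the 4 libraries dominated by 1 gene (adjusted p = 0.188). DESeq2 also called Cox5a and Cox6a1 lower (adjusted p = 0.0459 for Cox5a and 0.0424 for Cox6a1), and the length correction called Cox4i1, Cox6b1 and Cox7a2 higher.

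Cox6a2 and Cox6b2, forms restricted to other tissues, fell furthest with acetate, while Cox4i2 and Cox7a1 did not pass. Cox6a2 had 0.337, 0.0374, 0.0355 and 0.0710 CPM in KO acetate libraries, from 14 counts against 155 in KO untreated libraries, and the ratio of KO untreated over KO acetate counts was 11.2 (95% interval 6.47 to 20.9; log2 fold change −3.44, SE 0.68, adjusted p = 0.000479). Cox6b2 had 1.45, 3.18, 1.74 and 1.99 CPM in KO acetate and 4.39, 5.54, 4.71 and 4.89 CPM in KO untreated libraries, without overlap (log2 fold change −1.23, SE 0.27, adjusted p = 0.00118). In wild-type cells acetate gave a log2 fold change of −0.63 for Cox6b2 (SE 0.27), which missed the threshold, and the difference between the genotypes also missed it (log2 fold change −0.60, SE 0.38, adjusted p = 0.338).

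Of the 13 calls in this comparison made on genes named by rule, those of Uqcrfs1, Uqcrh, Uqcrq, Cox16, Cox6a2 and Cox6b2 held in every alternative fit. The Cox6a2 call adds no support here either, as the gene passed the filter on low counts only through KO untreated. Without KO acetate 1 and 3, the libraries low in short transcripts, 12 genes rose and 6 fell, and the median over the 51 genes was 0.01. With the length correction 14 rose and 10 fell, and the median was 0.02. Of fits without 1 library, those without KO untreated 2 or 3 called 4 genes higher, those without KO acetate 2 or 4 called 5 higher, and the other 4 fits called between 6 and 9. KO acetate libraries lay wholly above KO untreated libraries for 4 of the 51 genes (19.0% of all genes) and wholly below for 9 (18.7% of all genes, and 37.7% either way). Members with transcripts of up to 0.7 kb had a median of −0.08 in this comparison, against −0.23 for the other genes of that length, and those of 0.7 to 1 kb had −0.03, against −0.11 for the others.

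**Figure D5:**
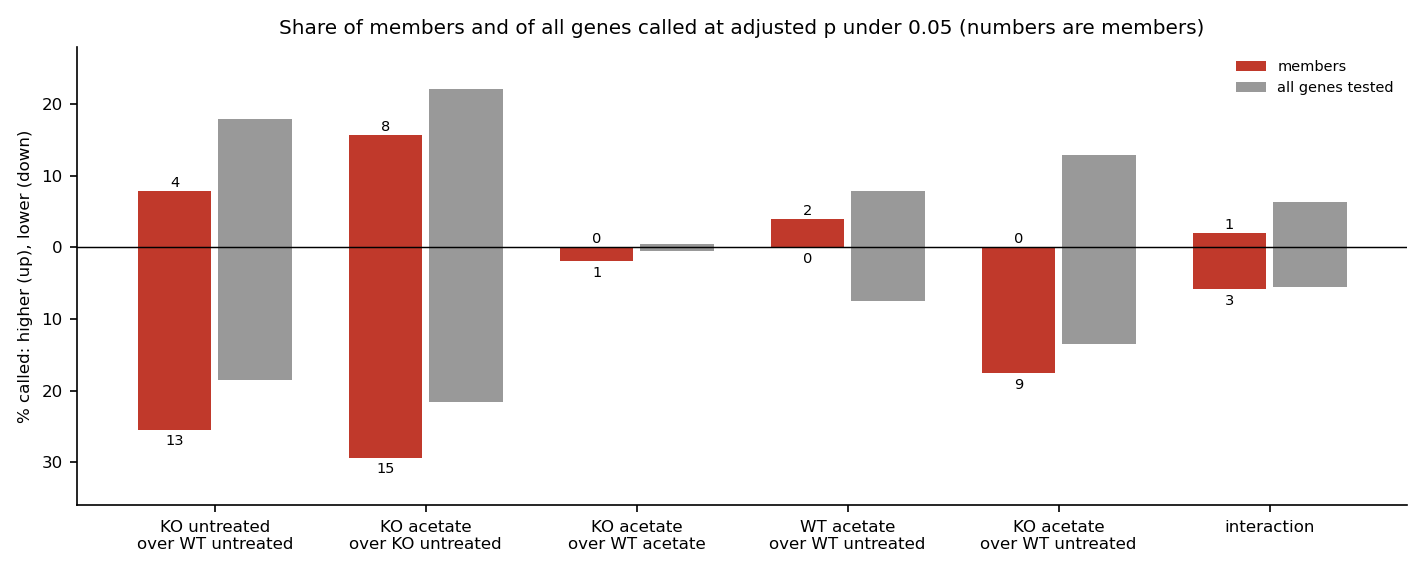
Percent of the 51 genes (red) and of all 14985 genes tested (grey) called higher (upward) and lower (downward) at an adjusted p under 0.05 in 5 comparisons and in the interaction, with the number of members above or below each bar. Members were called lower more often than higher in KO untreated over WT untreated (13 and 4) and in KO acetate over KO untreated (15 and 8).

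The response to acetate was called different between genotypes for 4 genes, a share no larger than that of all genes. The interaction subtracts the effect of acetate in WT cells from its effect in KO cells. It was called higher for 1 member (1.96%) and lower for 3 (5.88%). Of all genes tested, 6.37% and 5.54% were called higher and lower (11.9% in either direction). Uqcrfs1 went up with acetate by 0.53 in KO cells, against 0.16 (SE 0.06) in WT cells, where it missed the threshold (interaction: log2 fold change 0.36, SE 0.08, adjusted p = 0.00766). In WT acetate libraries it stood at 145, 149, 141 and 135 CPM. Cox16 fell in KO cells and showed −0.08 (SE 0.09) in WT cells, where the libraries held 25.2, 25.1, 25.7 and 24.1 CPM with acetate (interaction: log2 fold change −0.62, SE 0.13, adjusted p = 0.0043). Uqcrq likewise fell in KO cells and showed 0.04 (SE 0.08) in WT cells, with 99.8, 102, 96.6 and 89.4 CPM in WT acetate libraries (interaction: log2 fold change −0.47, SE 0.11, adjusted p = 0.00823). For Cox6a2 the interaction was −4.22 (SE 1.29, adjusted p = 0.0394), from 9 counts in WT acetate and 5 in WT untreated libraries. None of the 4 passed without the 4 libraries dominated by 1 gene, where the adjusted p was 0.0677 for Uqcrfs1, 0.0505 for Cox16, 0.062 for Uqcrq and 0.2 for Cox6a2. With the length correction Uqcrq (adjusted p = 0.0532) and Cox6a2 (adjusted p = 0.0572) also missed it, while Uqcrh passed (0.22 in the reported fit, 0.43 with the correction, adjusted p = 0.000583). Leaving out any single library kept the interaction of Uqcrfs1, Uqcrq and Cox16, while 12 of 16 such fits lost that of Cox6a2. Without KO acetate 2 or KO acetate 4, 5 interactions were lower instead of 3. Without both KO acetate 1 and 3, Uqcrq missed the threshold (adjusted p = 0.0512) and Uqcrh passed (0.34, adjusted p = 0.0184).

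With acetate present, few single genes passed the test between knockout and wild-type cells, although nearly all values leaned one way. In KO acetate against WT acetate cells 1 of the 51 genes fell and none rose in edgeR, while 0.514% and 0.487% of all genes tested fell and rose (1.00% in either direction). At an unadjusted p under 0.05, 23 members were lower and 0 higher, while 9.64% and 8.79% of all genes were lower and higher. DESeq2 called 11 lower and 0 higher, and 3.32% and 2.28% of the 14056 genes to which it gave an adjusted p. The gene that fell was Atp5mpl, with 30.6, 37.1, 30.3 and 35.8 CPM in KO acetate and 41.5, 41.1, 48.0 and 42.3 CPM in WT acetate libraries, which did not overlap (log2 fold change −0.37, SE 0.08, adjusted p = 0.0284). Leaving out KO acetate 1 and 3 took Atp5mpl to −0.25 (adjusted p = 0.481), and the length correction to −0.12 (adjusted p = 0.305). Log2 fold changes were negative for 47 of the 51 genes, with a median of −0.18 against 0.01 for all genes. Without KO acetate 1 and 3 the median was −0.07, and with the length correction −0.05. Members of up to 0.7 kb had a median of −0.27 and the other genes of that length −0.18, while those of 0.7 to 1 kb had −0.23 and the others −0.15. Cox8a, for example, had 93.8, 157, 100.2 and 134 CPM in KO acetate and 157, 169, 156 and 169 CPM in WT acetate libraries (log2 fold change −0.43, SE 0.12, adjusted p = 0.0927), with KO acetate 1 and 3 at the low end. Cox6a1 had 89.6, 148, 95.3 and 140.3 CPM in KO acetate and 156, 172, 165 and 162 CPM in WT acetate libraries and showed the same 2 low libraries (log2 fold change −0.47, SE 0.14, adjusted p = 0.101). KO acetate libraries lay wholly below WT acetate libraries for 11 of the 51 genes (4.86% of all genes) and wholly above for 0 (4.50% of all genes, and 9.36% either way). Without KO acetate 1 or 3, or WT acetate 3 or 4, no gene fell, while 12 fell without KO acetate 2 and 10 without KO acetate 4.

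In wild-type cells few of these genes passed the test for acetate. In WT acetate against WT untreated cells 2 genes rose and none fell in edgeR, while 7.89% and 7.55% of all genes tested rose and fell (15.4% in either direction). At an unadjusted p under 0.05, 6 were higher and 1 lower (14.4% and 14.0% of all genes), and DESeq2 called 4 higher and 0 lower (8.96% and 8.61% of all genes). Cox19, a copper-linked assembly factor, had 20.1, 22.6, 23.2 and 25.3 CPM in WT acetate and 19.5, 18.2, 18.0 and 16.3 CPM in WT untreated libraries, without overlap (log2 fold change 0.34, SE 0.11, adjusted p = 0.0367). Uqcrh had 172, 175, 177 and 168 CPM in WT acetate libraries, all above the WT untreated libraries (log2 fold change 0.22, SE 0.06, adjusted p = 0.0208). Neither call held without the 4 libraries dominated by 1 gene, with an adjusted p of 0.0696 for Cox19 and 0.0849 for Uqcrh, and fits without WT acetate 2 or WT untreated 3 called neither. Cyc1 had 147, 154, 145 and 149 CPM in WT acetate libraries and did not overlap with WT untreated but missed the threshold (log2 fold change 0.16, SE 0.06, adjusted p = 0.0631). Cox7a2l did the same, with 208, 222, 195 and 188 CPM in WT acetate and 149, 182, 169 and 184 CPM in WT untreated libraries (log2 fold change 0.25, SE 0.09, adjusted p = 0.068).

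Against untreated wild-type cells, acetate-treated knockout cells had several subunits lower in the reported fit, but only Atp5mpl without KO acetate 1 and 3. In KO acetate against WT untreated cells 9 of the 51 genes fell (17.6%) and none rose in edgeR, while 13.5% and 12.9% of all genes tested fell and rose (26.4% in either direction). The share that fell was thus near that of all genes. At an unadjusted p under 0.05, 22 were lower and 0 higher (19.2% and 19.1% of all genes), and DESeq2 called 13 lower and 0 higher (14.8% and 13.3% of all genes). Atp5g1 fell most, with the KO acetate values above against 121, 116, 104 and 94.7 CPM in WT untreated libraries (log2 fold change −0.52, SE 0.13, adjusted p = 0.00691), and without KO acetate 1 and 3 it was at −0.31 (adjusted p = 0.123). Atp5mpl followed, with 47.1, 46.4, 46.2 and 44.6 CPM in WT untreated libraries (log2 fold change −0.46, SE 0.08, adjusted p = 0.000308), and held in every alternative fit. Cox6a1 (log2 fold change −0.43, SE 0.14, adjusted p = 0.032) and Cox8a (log2 fold change −0.41, SE 0.12, adjusted p = 0.024) came next. Atp5j2, Cox5b, Atp5g3, Uqcr10 and Uqcrc1 also fell, with −0.35 for Atp5j2, −0.33 for Cox5b, −0.32 for Atp5g3, −0.27 for Uqcr10 and −0.26 for Uqcrc1. Without both KO acetate 1 and 3 only Atp5mpl fell, and with the length correction 6 fell and 2 rose. KO acetate libraries lay wholly below WT untreated libraries for 8 of the 51 genes and wholly above for 0 (14.2% of all genes each, and 28.4% either way). Without KO acetate 1 alone 4 genes fell and without KO acetate 3 alone 5, against 17 without KO acetate 2 and 21 without KO acetate 4. The medians over the 51 genes were −0.16 in the reported fit, −0.02 without KO acetate 1 and 3 and −0.01 with the length correction.

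Other genes of the same complexes were called in both directions without acetate. Of 34 tested subunits and assembly factors outside the name rule, 9 fell (26.5%) and 6 rose (17.6%) in KO untreated against WT untreated cells, beside 18.6% and 18.0% of all genes. Lyrm7 and Bcs1l, which guide the Rieske protein Uqcrfs1 into complex III, fell most (log2 fold change −0.46, SE 0.14, adjusted p = 0.013 and log2 fold change −0.42, SE 0.11, adjusted p = 0.00729). Sco2, a copper chaperone of complex IV, and Tmem70, an ATP synthase assembly factor, rose most (log2 fold change 0.54, SE 0.17, adjusted p = 0.0193 and log2 fold change 0.42, SE 0.08, adjusted p = 0.000305). In KO acetate against KO untreated cells 4 of the 34 rose (11.8%) and 11 fell (32.4%), beside 22.1% and 21.6% of all genes. Hccs, the enzyme that attaches heme to cytochromes c and c1, had 98.4, 96.0, 89.4 and 95.3 CPM in KO acetate and 70.0, 64.0, 63.7 and 68.3 CPM in KO untreated libraries, without overlap (log2 fold change 0.51, SE 0.06, adjusted p = 1.18e-06). Bcs1l rose as well (log2 fold change 0.38, SE 0.11, adjusted p = 0.0105), while Sco2 and Apopt1, an assembly factor of complex IV, fell most (log2 fold change −0.96, SE 0.18, adjusted p = 0.000243 and log2 fold change −0.67, SE 0.08, adjusted p = 2.48e-06). The interaction was called for Hccs (log2 fold change 0.45, SE 0.08, adjusted p = 0.00196), Apopt1 (log2 fold change −0.57, SE 0.11, adjusted p = 0.00337) and Tmem242, an ATP synthase assembly factor (log2 fold change −0.39, SE 0.10, adjusted p = 0.0152). It was called higher for 2.94% and lower for 5.88% of the 34, beside 6.37% and 5.54% of all genes. In WT acetate against WT untreated cells 1 of the 34 fell (2.94%, beside 7.55% of all genes), Uqcc3 of complex III (log2 fold change −0.35, SE 0.09, adjusted p = 0.0145). In KO acetate against WT untreated cells 1 rose, Hccs (log2 fold change 0.22, SE 0.06, adjusted p = 0.00983), and 7 fell, with Uqcc3 (log2 fold change −0.53, SE 0.09, adjusted p = 0.000494) and Fmc1 (log2 fold change −0.47, SE 0.14, adjusted p = 0.0153) lowest. These were 2.94% and 20.6% of the 34, beside 12.9% and 13.5% of all genes. None of the 34 passed edgeR's test in KO acetate against WT acetate cells, where 8 were lower and 2 higher at an unadjusted p under 0.05 and DESeq2 called 2 lower and 0 higher, with the shares of all genes given above for this comparison.

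Atpif1 and Usmg5, which have newer symbols starting with Atp5 and were set beside the others after the names in the table were seen, encode the ATP synthase inhibitor and a small membrane subunit. Atpif1 had 83.5, 90.2, 83.5 and 102 CPM in KO untreated and 107, 135, 126 and 130.2 CPM in WT untreated libraries, without overlap (log2 fold change −0.47, SE 0.10, adjusted p = 0.00136), and 95.6, 126, 97.1 and 123 CPM in KO acetate libraries (log2 fold change 0.29, SE 0.10, adjusted p = 0.0226). KO acetate 1 and 3, the lowest of these, lay within the KO untreated range of Atpif1. Usmg5 did not pass without acetate (log2 fold change −0.23, SE 0.16, adjusted p = 0.283). Of the 6 mitochondrially encoded partners, mt-Co1, the catalytic subunit of complex IV, had 21416, 20851, 20818 and 20970.3 CPM in KO untreated and 14504, 16127, 15504 and 16889.7 CPM in WT untreated libraries, without overlap (log2 fold change 0.42, SE 0.08, adjusted p = 0.000506), and 14769.6, 16195, 16549.9 and 18692 CPM in KO acetate libraries (log2 fold change −0.34, SE 0.08, adjusted p = 0.00163). Its interaction was called too (log2 fold change −0.52, SE 0.11, adjusted p = 0.00598). No other of the 6 was called by edgeR in KO untreated against WT untreated cells, where DESeq2 called 1 higher and 1 lower. Log2 fold changes were positive for 4 of the 6 and negative for 2. mt-Co2 went the other way from mt-Co1, without overlap. It had 118, 121, 98.8 and 94.95 CPM in KO untreated and 156, 206, 192 and 415 CPM in WT untreated libraries. Libraries varied widely for mt-Co3, from 329 CPM in KO acetate 3 to 1392 CPM in WT acetate 4. In KO acetate against KO untreated cells 3 fell (50%, beside 21.6% of all genes), with mt-Cytb (−0.67, SE 0.21) and mt-Atp8 (−0.36, SE 0.13) beside mt-Co1. The groups overlapped for mt-Cytb and mt-Atp8. Fold changes of single genes outside the 51 are given here from the reported fit only. Of the 7 regulators of respiratory genes tested, 3 fell and 1 rose in KO untreated against WT untreated cells, beside 18.6% and 18.0% of all genes. In KO acetate against KO untreated cells 3 rose and 1 fell, beside 22.1% and 21.6% of all genes. Esrra, the nuclear receptor ERRα, had 12.0, 13.6, 10.1 and 13.0 CPM in KO untreated and 19.6, 19.1, 18.2 and 20.7 CPM in WT untreated libraries, without overlap (log2 fold change −0.67, SE 0.10, adjusted p = 4.01e-05). In KO acetate libraries it stood at 23.5, 24.6, 24.1 and 27.6 CPM, above every KO untreated library (log2 fold change 1.04, SE 0.10, adjusted p = 1.45e-07), and its interaction was called (log2 fold change 0.67, SE 0.14, adjusted p = 0.00384). Ppargc1b, a coactivator of ERRα, had 2.88, 2.49, 2.41 and 2.90 CPM in KO untreated, 4.62, 5.57, 4.61 and 5.08 CPM in KO acetate and 5.74, 5.00, 4.79 and 4.29 CPM in WT untreated libraries, with −0.89 (SE 0.16) for KO untreated over WT untreated and 0.89 (SE 0.16) for KO acetate over KO untreated. Pprc1, a relative of that coactivator, went the other way in both comparisons (log2 fold change 0.30, SE 0.07, adjusted p = 0.00193 and log2 fold change −0.46, SE 0.07, adjusted p = 2.32e-05). What these regulators have to do with the 51 genes was not tested.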

How the data were processed

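Bulk RNA of 16 libraries, 4 in each of 4 groups taken from the labels, was measured in a deposited table of estimated counts per gene, given as whole numbers. Per the submitters' processing notes, the authors used Salmon, DESeq2 and DESeq, whose versions are not listed there. The genome build is not given in the sources used here. Salmon divides reads that fit several transcripts, so values of genes with near-identical copies (the reference holds 9 pseudogenes named like these genes, 0 of them in the table, and 3 similar c ring genes) are uncertain. Gene IDs were paired with symbols through GENCODE M21 (GRCm38), and 15221 of 15571 IDs matched. Transcript lengths come from the same annotation, and promoters from RefSeq (GRCm38.p6), matched by symbol.

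The estimated counts were tested with edgeR 4.0.16 (R 4.3.3, limma 3.58.1) by its quasi-likelihood test with robust dispersion, TMM scaling and filterByExpr. All 16 libraries entered one fit with a mean per group, and p-values were adjusted by the Benjamini-Hochberg method over 14985 genes, with a threshold of 0.05. Every adjusted p in the text is from this test or, where said, from an alternative: other scaling, no filter, DESeq2 1.42.0, the replicate number as a block, only the groups compared, and each library left out. Fits without the 4 libraries dominated by 1 gene, without both KO acetate 1 and 3 and with a trend over transcript length removed per library (lowess, span 0.5) were added after seeing the data. CPM are counts scaled to the TMM-adjusted library size. Depth was between 24.57 and 33.72 M counts a library, and intervals on counts are exact 95% intervals covering counting error only. Replicate numbers were not taken as pairs. The genes, lists, motifs and tests were chosen with earlier results of these data known. The genes named by rule were Cyc1, Cycs and the isoform families, up to 4 called genes with the largest rise and 4 with the largest fall in each comparison, and any gene called in the interaction (up to 2 a direction in the other lists). Other genes in the text were named to complete a role after their values were seen.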

Additional observations from a re-analysis of the deposited data

Results flagged for a closer look

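Of 108 groups of 4 libraries (the named genes in each group), 7 held a library far from the other 3, and chance gives about 1 in 20. Cox11 had 17.7 CPM in KO acetate 4, against 13.0 to 13.5 CPM in the other KO acetate libraries. Cox6a2 had 0.337 CPM in KO acetate 1, against 0.0355 to 0.071 CPM in the others of that group. Cox19 had 20.8 CPM in KO untreated 4, against 17.2 to 17.7 CPM in the others. Cycs had 112 CPM in WT untreated 3, against 128 to 129 CPM in the others. In WT acetate cells, Cox4i1 had 285 CPM in library 2, against 248 to 254 CPM in the others. Atp5mpl had 48.0 CPM in WT acetate 3, against 41.1 to 42.3 CPM in the others. Cox20 had 10.1 CPM in WT acetate 4, against 9.82 to 9.84 CPM in the others.

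For 4 genes the acetate effect in KO cells differed from that in WT cells by the interaction test of edgeR, with log2 differences of 0.36 for Uqcrfs1, −0.47 for Uqcrq, −0.62 for Cox16 and −4.22 for Cox6a2. None of these 4 passed without the 4 libraries dominated by 1 gene.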

How the results depend on the processing

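Counts of called genes depended on the libraries and on scaling more than single large changes did. With libraries scaled by totals alone, 2 genes were higher in KO untreated against WT untreated cells (4 in the reported fit), 8 lower in KO acetate against KO untreated cells (15) and 4 higher in WT acetate against WT untreated cells (2). DESeq2 called 11 lower in KO acetate against WT acetate cells (1), 4 higher with acetate in WT cells and 5 lower interactions (3). Fits of only the groups compared called 7 higher in KO untreated against WT untreated cells, 0 lower in KO acetate against WT acetate cells and 5 higher with acetate in WT cells. With the replicate number as a block, 3 were lower in KO acetate against WT acetate cells, 1 was lower with acetate in WT cells (0) and 5 interactions were lower. The block lost none of the reported calls and added Cox6b2, Cox11 and Cox6c in KO untreated against WT untreated cells, Atp5d and Cox8a in KO acetate against WT acetate cells, Atp5f1 and Cox6a1 in KO acetate against KO untreated cells, Cox6b2 and Cox7a2l with acetate in WT cells, Cox6b2 and Uqcrb in KO acetate against WT untreated cells and Cox14 and Cox6c in the interaction. The 24 pairs of libraries with the same number correlated by −0.084 to 0.229, 9 of them over 0.1, and 9 of 16 libraries correlated best with their own number, a hint from the data, not the design. Not every pair passed 0.1, and this does not settle whether the numbers are pairs. The labels do not say what the numbers pair, so the reported fit leaves them out and the block is given as an alternative.

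Without the 4 libraries dominated by 1 gene, 7 were lower in KO untreated against WT untreated cells (13), 7 lower in KO acetate against WT acetate cells, 2 higher in KO acetate against KO untreated cells (8) and 0 higher with acetate in WT cells. Interactions were then 0 higher (1) and 1 lower, Cox14, none of the 4 reported. Without both KO acetate 1 and 3, 0 were lower in KO acetate against WT acetate cells, 6 lower in KO acetate against KO untreated cells, 4 higher with acetate in WT cells and 1 lower in KO acetate against WT untreated cells (9), with a median log2 fold change of −0.021 there (−0.16) and 2 interactions higher. With the length correction, 7 were higher in KO untreated against WT untreated cells, 0 lower in KO acetate against WT acetate cells, 14 higher in KO acetate against KO untreated cells, 5 higher with acetate in WT cells and 2 higher in KO acetate against WT untreated cells (0), with a median log2 fold change of −0.0055 there. Interactions were 5 higher and 1 lower, and Uqcrh in KO acetate against WT untreated cells turned to 0.16 (−0.01). The causes were not tested.

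Leaving out each library in turn gave 4 to 5 higher and 8 to 11 lower genes in KO untreated against WT untreated cells, 4 to 9 higher and 12 to 21 lower in KO acetate against KO untreated cells, and 0 to 12 lower in KO acetate against WT acetate cells. With acetate in WT cells the range was 0 to 2 higher and 0 to 1 lower, in KO acetate against WT untreated cells 4 to 21 lower, and for the interaction 1 to 2 higher and 2 to 5 lower. Of 1512 such values of the genes named by rule, 1415 kept direction and side of the threshold, 67 lost and 30 gained a call and 0 reversed. Under the other settings these were 1494, 41, 54 and 1 of 1590.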
